A study of Mus musculus with 48 samples.

Results

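Zinc finger genes with the symbols Zfp600 to Zfp999 were described in RNA recovered with Tnrc6a from mouse embryonic stem cells. A row of the deposited count table was a member if its symbol was Zfp followed by a number from 600 to 999. The rule used the symbol and no measured value. It found 166 rows of the 20171 in the table, with 165 distinct symbols, because Zfp965 is listed at 2 gene identifiers. All 166 rows passed the filter on low counts in the comparisons of recovery. In the comparison of Ago2 knockout lysates 164 did, and Zfp641 and Zfp872 were not tested.

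The study used RNA immunoprecipitation followed by sequencing: RNA was sequenced from cleared lysates (inputs) and from what HA antibody beads pulled out of them (immunoprecipitates, IP). Every line came from 129S6/SvEvTac embryonic stem cells that carry the GFP_5xT71BS reporter and a stable FLAG-Cas9 transgene with blasticidin resistance. The untagged control had no further change, HA-Tnrc6a cells carried HA-AVI-Tnrc6a, and the other 2 genotypes were HA-Tnrc6a cells that were Ago2-/- or Upf1-/- by label. Cells grew on gelatin in serum and LIF, and 3 libraries were made for each of 16 groups (4 genotypes, input or IP, experiment 3 or 4), 48 in all. Groups were grown as triplicate dishes, and the number of clones behind a genotype is not given, so p-values measure the spread between dishes.

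Tnrc6a is a GW182 protein. It binds Argonaute proteins such as Ago2, which microRNAs guide to mRNAs, and it brings deadenylases to those mRNAs, while Upf1 is the central helicase of nonsense-mediated decay. Most members encode proteins with a row of zinc fingers that bind DNA, and many also carry a KRAB domain, which recruits the corepressor Trim28 and the histone methyltransferase Setdb1. In embryonic stem cells such proteins are known for silencing endogenous retroviruses and other retroelements. Their coding sequences are repetitive and many lie in arrays of similar genes, so reads of near-identical copies may be assigned to the wrong member, and such values are uncertain. Whether counting used the strand is not given in the sources used here, so members that overlap another gene are uncertain as well.

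Libraries held 15383953 to 19595405 counts for inputs and 11471544 to 18344233 for IPs of experiment 3. In experiment 4 they held 26458831 to 37179105 for inputs and 25724085 to 73845953 for IPs. Which columns belong to which experiment was inferred from the column numbers. In the inputs Ago2 was lower in cells labelled Ago2 knockout, at 94.6 ± 2.2 CPM (counts scaled to library size by TMM and given per 1e6 counts, SD, n = 3) against 207 ± 2.62 in experiment 3, and Tnrc6a itself was recovered with the tag by a log2 difference of 7.77 ± 0.18 (SE). Upf1 mRNA was higher, not lower, in the cells labelled Upf1 knockout, at 123 ± 0.874 CPM against 77.6 ± 4.95 in experiment 3, so the label stands for the genotype without a check from its mRNA. Of the markers of pluripotent stem cells 10 of 10 were present, with a summed level of 7609 to 8053 CPM in HA-Tnrc6a inputs. Of 8 fibroblast markers 4 are listed, summing to 35.9 to 48.1 CPM, and of 6 markers of two-cell-like cells 2 are listed, summing to 0.341 to 1.44 CPM. Primitive endoderm markers summed to 102 to 132 CPM in HA-Tnrc6a inputs, 50.6 to 111 in untagged, 44.0 to 58.3 in Ago2 knockout and 39.6 to 147 in Upf1 knockout inputs. None of the listed markers was at 0 in every library.

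Members lie on many chromosomes, with 36 on chromosome 7, 22 on chromosome 17, 16 on chromosome 8, 15 on chromosome 4, 14 on chromosome 2 and 12 on chromosome 13 (GRCm38, RefSeq positions). By position, 83 members fall into 13 groups of at least 4 with gaps of at most 500000 bases, and 50 have no other member within that distance. The group with the most members holds 14 and spans chr17:21383707-22867309. Overlap with another RefSeq gene was found for 66 members. Their median length in the table was 4036.5 bases, against 3309 over all genes.

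Most members were expressed at low levels. In the 6 HA-Tnrc6a inputs the median member had 2.58 CPM per kilobase, 133 of 166 had at least 1 and 27 had at least 10. The highest levels per kilobase were those of Zfp990 (68.9 ± 11.7 CPM per kilobase, SD, n = 6), Zfp985 (47.5 ± 5.22), Zfp988 (42.8 ± 10.9), Zfp980 (35.3 ± 6.47), Zfp740 (34.6 ± 4.54) and Zfp984 (34.3 ± 2.45). All of these but Zfp740 sit in the arrays on distal chromosome 4, which hold KRAB zinc finger genes linked to retroelement silencing. The lowest was Zfp641 at 0.0711 ± 0.0618. Neighbours in this order from Zfp980 to Zfp984 differed by less than their spread.

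Members together took a larger share of the counts in IPs from tagged cells than in their inputs. In HA-Tnrc6a IPs they made up 0.604 ± 0.0209% of counts in experiment 3 and 0.735 ± 0.0291% in experiment 4 (SD, n = 3 each), against 0.419% and 0.513% in the inputs. The shares in untagged IPs were 0.380 ± 0.0221% and 0.570 ± 0.0244%, against 0.415% and 0.506% in untagged inputs. In experiment 4 the untagged IPs thus also exceeded their inputs. In IPs from Ago2 knockout cells they were 0.706 ± 0.0176% and 0.797 ± 0.0272%, and from Upf1 knockout cells 0.565 ± 0.00954% and 0.681 ± 0.0295%. In both experiments, then, the Ago2 knockout IPs held the highest share and the untagged IPs the lowest. The share is a sum in which members with many counts weigh most, and single members differed. In HA-Tnrc6a cells the ratio of mean IP to mean input CPM was 45.0 and 33.6 for Zfp827 in experiments 3 and 4. For Zfp990, the highest per kilobase, it was 0.680 and 0.676.

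Recovery with HA-Tnrc6a was the first comparison. It is the log2 IP-over-input ratio in tagged cells less the same ratio in untagged cells, so what beads bind without a tag is the background. Zfp768, Zfp827, Zfp790, Zfp651 and Zfp707 were recovered most, between 3.55 and 6.04 on this scale, and Zfp692, Zfp930, Zfp612, Zfp938 and Zfp944 least, between -0.92 and -0.61. In the fit of all genes with edgeR, 74 of 166 members (44.6%) rose at an adjusted p under 0.05 and 27 (16.3%) fell. Of all genes tested, 29.8% rose and 32.2% fell. The median member stood at 0.20 and the median gene at -0.10. At a change of at least 2-fold 41 members rose (24.7%) and 0 fell, against 16.5% and 4.95% of all genes. The 27 members that fell did so by less than 2-fold.

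The split between rising and falling members depended on the scaling of the libraries. With library totals in place of TMM factors 66 members rose and 49 fell, and the median over all genes moved from -0.10 to -0.25. All genes shifted too, with 25.6% that rose and 39.9% that fell. Experiment 3 alone gave 66 and 11, and experiment 4 alone 63 and 31. Over all genes 27.4% rose and 20.8% fell in experiment 3 alone, and 27.4% and 30.0% in experiment 4 alone. The other 217 Zfp genes of the table, numbered outside the range, had 114 that rose and 32 that fell among 216 tested, with a median of 0.34.

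**Figure D1:**
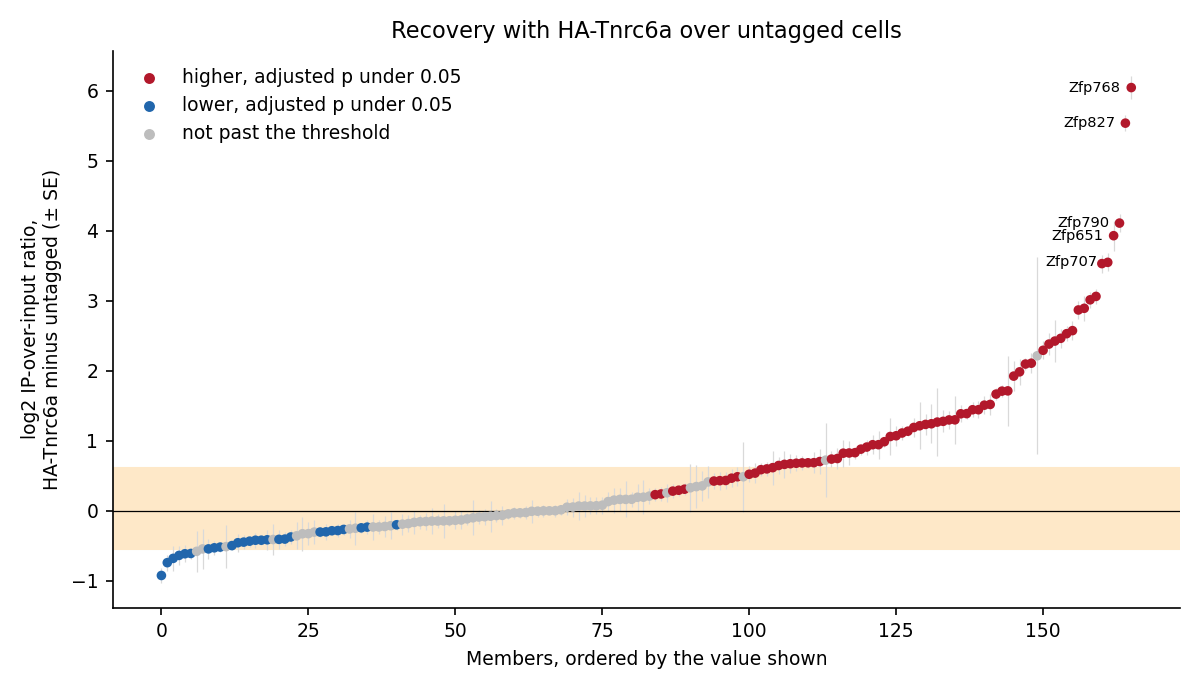
Recovery of each of the 166 members with HA-Tnrc6a over untagged cells, as a log2 difference of IP-over-input ratios (y axis, ± SE), with members ordered by that value along the x axis. The band spans the 25th to 75th percentile of all genes; Zfp768 (6.04) and Zfp827 (5.53) stand above the other members, and no called member on the low side passes -1.

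Zfp768 (chr7:127342795-127345314) showed the highest recovery. Its IP levels in HA-Tnrc6a cells were 363, 317 and 262 CPM in experiment 3 and 282, 226 and 221 in experiment 4. In untagged IPs they were 4.53, 3.15 and 3.17 and then 5.65, 5.11 and 5.31, close to the HA-Tnrc6a inputs at 4.58, 3.11 and 3.74 and then 5.81, 5.07 and 5.71. Tagged and untagged IPs did not overlap, and the difference was 6.04 ± 0.16 (SE), 65.9-fold, with an edgeR adjusted p of 1.08e-24. It was 6.42 in experiment 3 and 5.66 in experiment 4.

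Zfp827 (chr8:79027486-79193768, overlapping Gm30271) encodes a protein known to bring the NuRD complex to telomeres. HA-Tnrc6a IPs held 499.8, 421 and 374 CPM in experiment 3 and 792, 639.7 and 616 in experiment 4. Untagged IPs held 10.2, 10.1 and 9.43 and then 16.4, 19.0 and 18.2, about the level of the inputs (9.15 to 21.0). The recovery was 5.53 ± 0.11, 46.3-fold (edgeR adjusted p 1.5e-28), and every tagged IP lay above every untagged IP.

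Zfp790 (chr7:29811437-29832042) had 123, 110.4 and 100.4 CPM and then 107, 83.6 and 78.0 in HA-Tnrc6a IPs. It had 5.2 to 8.38 CPM in the untagged IPs, and its recovery was 4.11 ± 0.13 (edgeR adjusted p 2.96e-24). Zfp651 (chr9:121759319-121771742, overlapping E530011L22Rik) reached 3.93 ± 0.21 and Zfp707 (chr15:75969123-75975868) 3.55 ± 0.13. For both, the lowest tagged IP (43.5 CPM for Zfp651, 118 for Zfp707) was above the highest untagged IP (5.53 and 16.9).

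**Figure D2:**
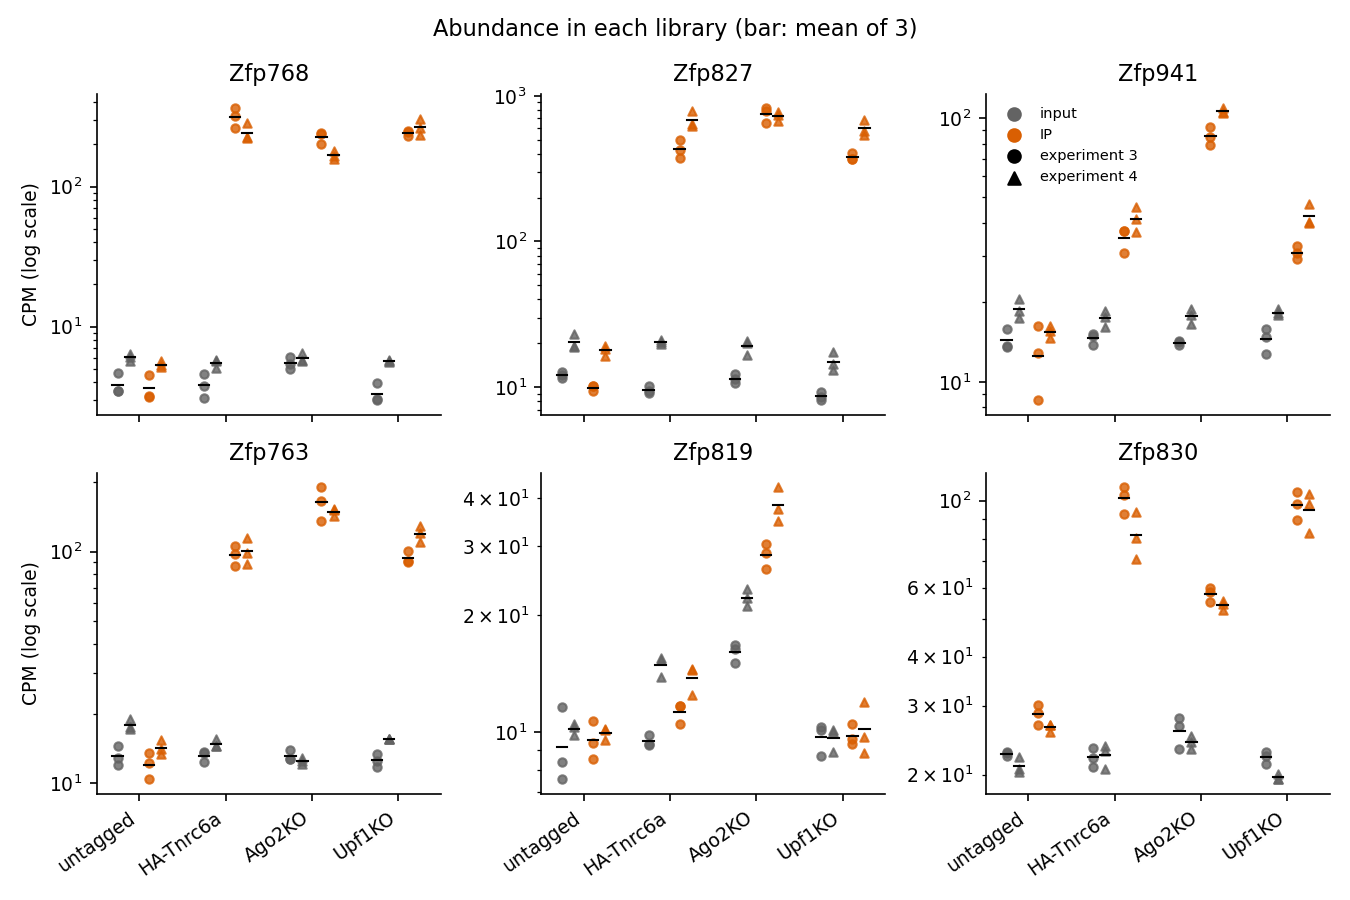
CPM (log scale) of 6 members in each of the 48 libraries, by genotype, with inputs and IPs coloured, circles for experiment 3, triangles for experiment 4 and a bar at the mean of 3. IPs of the tagged genotypes lie above untagged IPs for Zfp768, Zfp827, Zfp941, Zfp763 and Zfp830, and Ago2 knockout IPs lie highest for Zfp941, Zfp763 and Zfp819.

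Members with a described function were read from a list of 23 chosen for function, of which 21 are members in the table. The list was made with earlier results of these data known, so its counts are a description only. Of the 21, 14 rose and 3 fell, with a median recovery of 0.70, where 29.8% of all genes rose and 32.2% fell. Among members tied to retroelements, Zfp708 rose by 2.38 ± 0.16 and Zfp961 by 0.69 ± 0.07, while Zfp932 fell by 0.53 ± 0.10 and Zfp979 by 0.50 ± 0.06. Zfp809, which silences murine leukaemia proviruses, was at 0.16 ± 0.11 (edgeR adjusted p 0.191), and its untagged IPs (19.2 to 41.8 CPM) and HA-Tnrc6a IPs (23.4 to 37.6 CPM) overlapped. Zfp819, also linked to retroelements, was at 0.07 ± 0.12 (edgeR adjusted p 0.63).

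Several members with described roles in chromatin or DNA repair rose. Zfp668, a DNA repair factor, rose by 2.29 ± 0.13, Zfp704 by 2.10 ± 0.09, and Zfp830, needed for survival of the early embryo, by 1.71 ± 0.09. Zfp644, a partner of the G9a and GLP methyltransferases, rose by 1.44 ± 0.10, and Zfp687, found with Zmynd8, by 1.39 ± 0.08. Zfp652, a corepressor partner, rose by 0.88 ± 0.08, and Zfp609, a partner of Nipbl and Integrator, by 0.65 ± 0.13. Zfp706, known for its role in the exit from self-renewal, was at -0.01 ± 0.08 and Zfp639 at -0.03 ± 0.08, both short of the threshold.

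Zfp692 (chr11:58307057-58315145, overlapping Zfp672) was the member recovered least. Untagged IPs held 48.9, 43.6 and 37.6 CPM and then 33.7, 27.6 and 29.3, and HA-Tnrc6a IPs 24.01, 22.7 and 19.2 and then 14.1, 13.9 and 13.3. Within each experiment the groups did not overlap, and the difference was -0.92 ± 0.10 (edgeR adjusted p 7.86e-10). Its HA-Tnrc6a inputs were at 18.4 to 24.7 CPM, and without a tag it bound the beads with a log2 IP-over-input ratio of 0.63 ± 0.08. Zfp638 (overlapping Gm5138), a nuclear protein that silences unintegrated retroviral DNA with the HUSH complex, fell by 0.45 ± 0.10. Experiment 3 alone ended the calls of Zfp930, Zfp944, Zfp932, Zfp600, Zfp750 and Zfp703. Experiment 4 alone ended those of Zfp612 and Zfp711.

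Recovery differed along the numbering. The groupings by number and by position were made after the data had been seen and carry no test. They share members, so they are not separate observations. Among Zfp600 to Zfp699, 20 of 41 rose and 4 fell (median 0.33), among Zfp700 to Zfp799, 26 of 38 rose and 1 fell (0.76), and among Zfp800 to Zfp899, 15 of 26 rose and 2 fell (0.63). Among Zfp900 to Zfp999, 13 of 61 (21.3%) rose and 20 (32.8%) fell (-0.15). Beside the 29.8% and 32.2% of all genes, the share that fell was thus near the background in the last block and below it in the others. In experiment 3 alone the last block had 13 that rose and 8 that fell, and with library totals 11 and 30. Over all genes 27.4% rose and 20.8% fell in experiment 3 alone, and 25.6% and 39.9% with library totals. Members with no neighbour within 500000 bases had 29 of 50 that rose and 1 that fell (0.66), and members in groups of at least 4 had 32 of 83 that rose and 18 that fell (0.07). With library totals these became 24 and 9, and 29 and 28.

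**Figure D3:**
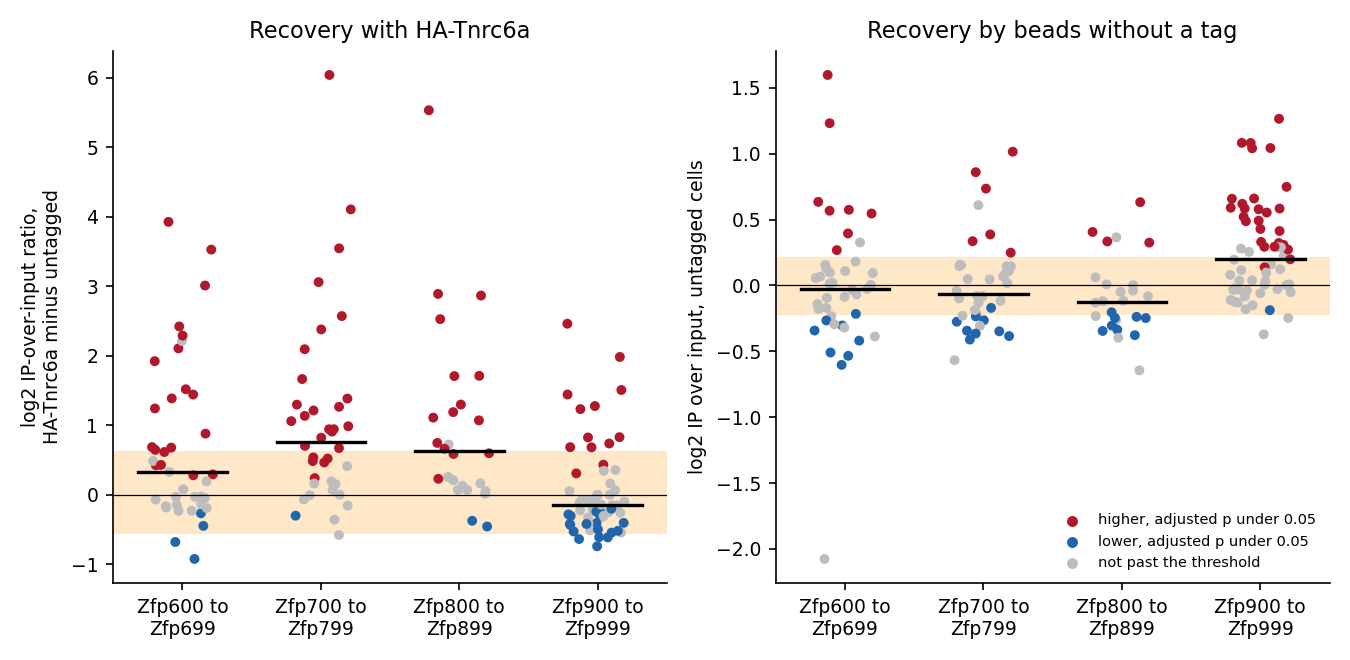
Left, log2 recovery with HA-Tnrc6a over untagged cells, and right, log2 IP over input in untagged cells, for members in 4 blocks of numbers, with 1 point per member, a line at the block's median and a band for the 25th to 75th percentile of all genes. On the left the Zfp900 to Zfp999 block has its median below 0 (-0.15) and the other blocks above it, while on the right that block has the highest median (0.20). The untagged ratio on the right is subtracted in the value on the left, so the panels are not independent.

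The 2 arrays on distal chromosome 4 hold 13 members. One spans chr4:145510759-146539395 with Zfp990, Zfp980, Zfp987, Zfp600, Zfp992 and Zfp981, and the other chr4:147132093-147849126 with Zfp991, Zfp988, Zfp982, Zfp985, Zfp979, Zfp984 and Zfp933. All but Zfp600 also belong to the Zfp900 to Zfp999 block, and all 13 to the members in groups of at least 4. Of the 13, 11 fell and 1 rose in HA-Tnrc6a cells (median -0.28), against 32.2% and 29.8% of all genes. Of the other 153 members 16 fell and 73 rose (median 0.29). In experiment 3 alone 5 of the 13 fell, and in experiment 4 alone 8, against 20.8% and 30.0% of all genes. Zfp990, the most abundant member, had 129, 139 and 149 CPM and then 176, 200.3 and 186 in HA-Tnrc6a IPs, against 180.0, 206 and 214 and then 261, 242 and 248 in untagged IPs. Its IPs did not overlap within an experiment, and its recovery was -0.52 ± 0.07 (edgeR adjusted p 7.15e-08). Zfp933 was the member of these arrays that rose, by 1.98 ± 0.18, with 15.7 to 23.1 CPM in HA-Tnrc6a IPs and 1.96 to 5.99 in untagged IPs. These members resemble one another in sequence, so the counts of each are uncertain.

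On chromosome 7 a group of 9 members at chr7:127242996-127885996 had 5 that rose and 0 that fell, against 29.8% and 32.2% of all genes. It holds Zfp768, Zfp629 (3.53 ± 0.13) and Zfp668. At chr17:32765496-33033381, 4 of 6 members rose and 0 fell (median 0.92), with Zfp763 at 3.06 ± 0.11. Both are examples from the 13 groups of at least 4, whose 83 members had 32 that rose and 18 that fell.

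Zfp942 and Zfp943 on chromosome 17 start 95 bases apart and run in opposite directions, so their upstream windows share 194 bases. They are shown because neighbours with a shared start region were recovered differently, and the pair was chosen after its values were seen. The windows (RefSeq, GRCm38.p6, 250 bases before to 50 bases after each start) are at chr17:21962415-21962714 on the minus strand for Zfp942 and chr17:21962309-21962608 on the plus strand for Zfp943. Both are written 5′ to 3′ on the gene's strand, with CG dinucleotides in capitals.
Zfp942: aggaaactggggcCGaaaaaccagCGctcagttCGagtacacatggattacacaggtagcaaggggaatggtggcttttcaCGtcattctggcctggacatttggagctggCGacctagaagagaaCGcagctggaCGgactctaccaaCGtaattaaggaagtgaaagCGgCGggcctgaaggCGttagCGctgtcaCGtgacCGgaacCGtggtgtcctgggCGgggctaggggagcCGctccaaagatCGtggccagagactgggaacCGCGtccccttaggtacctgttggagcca
Zfp943: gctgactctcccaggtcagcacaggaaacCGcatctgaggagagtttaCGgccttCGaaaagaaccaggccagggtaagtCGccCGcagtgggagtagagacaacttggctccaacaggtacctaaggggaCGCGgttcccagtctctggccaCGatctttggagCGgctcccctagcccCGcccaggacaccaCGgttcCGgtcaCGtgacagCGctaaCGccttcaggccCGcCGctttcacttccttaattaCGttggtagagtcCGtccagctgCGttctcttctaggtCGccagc
The Zfp942 window holds 20 CG and the Zfp943 window 21. Zfp942 levels were 13.7, 9.61 and 8.59 CPM and then 8.22, 10.3 and 11.3 in HA-Tnrc6a IPs, and 13.4, 11.6 and 13.6 and then 14.2, 13.7 and 13.6 in untagged IPs. The ranges overlapped in experiment 3 and not in experiment 4, and its recovery was -0.41 ± 0.14 (edgeR adjusted p 0.0115). Zfp943 had 7.38, 10.1 and 10.2 and then 14.3, 13.7 and 11.3 CPM in HA-Tnrc6a IPs, and 3.77, 3.61 and 3.88 and then 6.998, 5.04 and 6.49 in untagged IPs. Its groups did not overlap, and its recovery was 1.28 ± 0.16 (edgeR adjusted p 1.49e-08). The difference between the 2 genes was not tested. In a second pair of this kind, Zfp944 and Zfp758, with 162 shared bases and starts 63 bases apart, recovery was -0.61 and 0.15.

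Promoter windows were found for 144 members, 174 windows in all. The dinucleotide CG, which reads the same on both strands, was counted in each. The median was 11 per 300-base window, against 7 over 32851 windows of 27025 genes, and 58.0% of the member windows held at least 10, against 43.5% of all windows. Those 27025 genes are all with a window in the reference, not the genes of the count table.

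Recovery from Ago2 knockout cells over untagged cells used the same untagged libraries as the comparison above. In the edgeR fit, 90 members rose and 16 fell, where 31.5% of all genes rose and 33.2% fell. At 2-fold or more 42 members rose, against 16.6% of all genes. The members' median was 0.43 and that of all genes -0.07. Zfp827 (5.90 ± 0.10), Zfp768 (5.22 ± 0.13), Zfp763 (3.85 ± 0.10), Zfp629 (3.84 ± 0.10) and Zfp790 (3.83 ± 0.11) were recovered most. Zfp692 (-0.87 ± 0.10) and Zfp612 (-0.72) were recovered least. Library totals gave 78 that rose and 28 that fell, with a median over all genes of -0.22. Under that setting 27.0% of all genes rose and 39.9% fell. Zfp809 rose by 0.38 ± 0.11 (edgeR adjusted p 0.00308), a call lost with library totals and in experiment 4 alone.

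Recovery without Ago2 was then set against recovery in HA-Tnrc6a cells, a comparison that uses no untagged library. Zfp941, Zfp791, Zfp763, Zfp819 and Zfp764 gained most, and Zfp830, Zfp768, Zfp651, Zfp810 and Zfp652 lost most. Of the 166 members, 46 (27.7%) rose and 9 (5.42%) fell by edgeR. Of all genes 9.09% rose and 12.3% fell. The median member stood at 0.19 and the median gene at -0.04. Experiment 3 alone gave 19 and 5, and experiment 4 alone 32 and 9. Over all genes 3.39% rose and 5.29% fell in experiment 3 alone, and 7.84% and 9.64% in experiment 4 alone. Of the other Zfp genes 68 of 217 (31.3%) rose and 15 (6.91%) fell, with a median of 0.18. Primitive endoderm markers summed to 37.3 to 84.7 CPM in Ago2 knockout IPs and 125 to 185 CPM in HA-Tnrc6a IPs, and their part in these values was not tested.

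Zfp941 (chr7:140807453-140822201) was the member that gained by more than 2-fold, as 0.43% of all genes did. HA-Tnrc6a IPs held 37.2, 37.4 and 30.7 CPM in experiment 3 and 45.8, 41.4 and 37.0 in experiment 4, and Ago2 knockout IPs 84.5, 78.7 and 92.3 and then 106, 105 and 109. The inputs of the 2 genotypes overlapped, at 13.8 to 18.5 and 13.8 to 18.9 CPM, and all Ago2 knockout IPs lay above all HA-Tnrc6a IPs. The gain was 1.33 ± 0.08, 2.52-fold (edgeR adjusted p 3.5e-14), and was 1.34 in experiment 3 and 1.33 in experiment 4. Upf1 knockout IPs, at 29.2 to 47.0 CPM, overlapped those of HA-Tnrc6a cells.

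Zfp763 (chr17:33016864-33033381) rose from 106, 97.5 and 86.5 CPM in HA-Tnrc6a IPs of experiment 3 to 189.7, 136 and 165 in Ago2 knockout IPs. In experiment 4 it rose from 114, 99.2 and 88.8 to 153, 143 and 151. The groups did not overlap in either experiment, and the gain in recovery was 0.79 ± 0.10 (edgeR adjusted p 1.75e-07). Zfp791 (chr8:85107168-85123095) gained 0.89 ± 0.18 (edgeR adjusted p 0.00031) at low levels, 2.05 to 3.30 CPM in HA-Tnrc6a IPs and 3.62 to 5.48 in Ago2 knockout IPs. Zfp764 gained 0.74 ± 0.13, a call that experiment 3 alone ended.

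Zfp819 (chr7:43607135-43618279) differed in both the lysate and the recovery. Its inputs held 9.28, 9.32 and 9.83 CPM and then 15.4, 15.4 and 13.8 in HA-Tnrc6a cells, and 16.3, 16.8 and 15.0 and then 21.0, 23.3 and 22.1 in Ago2 knockout cells. Its IPs went from 10.5, 11.7 and 11.7 and then 14.5, 12.5 and 14.4 to 28.9, 26.2 and 30.5 and then 42.6, 34.9 and 37.5. No knockout group overlapped its counterpart within an experiment. The lysate rose by 0.66 ± 0.06 (edgeR adjusted p 5.5e-12) and the recovery beyond the lysate by 0.74 ± 0.09 (edgeR adjusted p 1.99e-07).

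Losses of recovery were led by Zfp830 (chr11:82764345-82767622, overlapping Cct6b). Its IPs fell from 108, 104 and 92.3 CPM and then 93.6, 80.5 and 70.8 in HA-Tnrc6a cells to 59.9, 55.2 and 58.3 and then 55.5, 54.4 and 52.6 in Ago2 knockout cells. All of these were above the untagged IPs, at 25.7 to 30.1 CPM, and the loss was -0.87 ± 0.08 (edgeR adjusted p 7.83e-10). Zfp768 lost 0.83 on the log2 scale (SE 0.13, edgeR adjusted p 2.49e-05), from 221 to 363 CPM over the 6 HA-Tnrc6a IPs to 157 to 240.2 over the Ago2 knockout IPs, so it remained far above the untagged IPs. Zfp652 was at -0.44 ± 0.06. Zfp651 was at -0.67 ± 0.13, but its IPs alone differed by -0.05, and its Ago2 knockout inputs (5.18 to 7.30 CPM) lay above those of HA-Tnrc6a cells (3.22 to 5.10 CPM). Zfp810 was at -0.47, a call that experiment 3 alone ended.

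**Figure D4:**
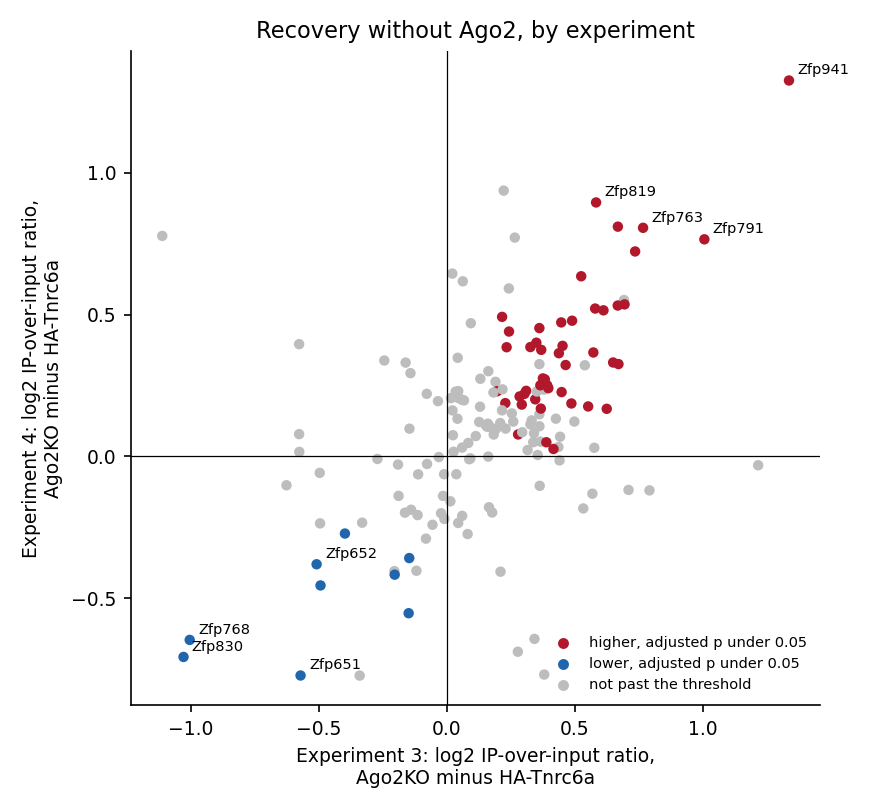
Change in recovery in Ago2 knockout against HA-Tnrc6a cells, as a log2 difference of IP-over-input ratios, in experiment 3 (x axis) and experiment 4 (y axis), with 1 point per member coloured by the edgeR call over both. Zfp941 lies at the top right in both experiments (1.34 and 1.33), and Zfp830 and Zfp768 at the bottom left.

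The arrays on chromosome 4 had 7 of 13 members that rose in this comparison and 1 that fell (median 0.24), against 9.09% and 12.3% of all genes. In experiment 3 alone 1 rose and in experiment 4 alone 3, against 3.39% and 7.84% of all genes. Zfp990 rose by 0.33 ± 0.08 (edgeR adjusted p 0.00197), with 182, 201 and 232 CPM and then 238, 241 and 228 in Ago2 knockout IPs, inside the 180.0 to 261 CPM of its untagged IPs over both experiments.

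Lysate levels in Ago2 knockout against HA-Tnrc6a cells rose for 42 of 164 members (25.6%) and fell for 19 (11.6%) by edgeR. Of all genes 15.7% rose and 15.2% fell. The median member was at 0.08 and the median gene at -0.01, and 55 of 215 other Zfp genes rose and 15 fell. In the same lysates 8 of 8 primitive endoderm markers fell, to a sum of 44.0 to 58.3 CPM from 102 to 132, and their part in the members' levels was not tested. The samples are bulk lysates, so fewer cells of a type and less RNA per cell cannot be told apart.

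After Zfp819 the lysate levels of Zfp651 (0.58 ± 0.10) and Zfp790 (0.47 ± 0.08) rose most. Zfp783 fell most, by 1.15 ± 0.20 on the log2 scale (edgeR adjusted p 1.04e-05). It is a long noncoding RNA in RefSeq and overlaps Zfp956, which fell by 0.42. Zfp783 had 1.53, 1.41 and 1.01 CPM and then 2.55, 3.10 and 2.33 in HA-Tnrc6a inputs and 0.468, 0.507 and 0.441 and then 1.68, 1.34 and 1.45 in Ago2 knockout inputs, with no overlap within an experiment. Zfp677 (chr17:21383707-21399265, overlapping Gm18519) fell by 1.13 ± 0.19, a call that experiment 4 alone ended. Zfp800, whose mRNA was recovered with HA-Tnrc6a by 2.89 ± 0.17, fell in the lysate by 0.41 ± 0.08. Untagged inputs also differed from HA-Tnrc6a inputs, with Zfp790 called higher and Zfp819 lower, though experiment 3 alone called 0 members higher there. Zfp790 had 2.42 ± 0.32 CPM per kilobase in untagged, 2.07 ± 0.38 in HA-Tnrc6a and 2.85 ± 0.31 in Ago2 knockout inputs (SD, n = 6).

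Recovery from cells labelled Upf1 knockout, again over the same untagged libraries, rose for 70 members and fell for 41 by edgeR, where 31.8% of all genes rose and 31.8% fell. At 2-fold or more 41 members rose, against 17.7% of all genes. With library totals 60 rose and 66 fell, and the median over all genes moved from -0.06 to -0.32. Under that setting 25.0% of all genes rose and 43.7% fell. Zfp768 (6.06 ± 0.13), Zfp827 (5.71 ± 0.10), Zfp790 (4.12), Zfp651 (4.03) and Zfp707 (3.63) were recovered most, and Zfp692 (-0.94 ± 0.10), Zfp998 (-0.90 ± 0.08), Zfp965 at ENSMUSG00000078896 (-0.85 ± 0.30) and Zfp638 (-0.84 ± 0.11) least. Zfp965 is the symbol listed at 2 identifiers, so its counts are uncertain, and experiment 3 alone ended its call. Of the 13 members in the chromosome 4 arrays 12 fell and 1 rose (median -0.48), against 31.8% each of all genes, and the counts were the same in each experiment alone.

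Against HA-Tnrc6a cells, recovery in cells labelled Upf1 knockout rose for 3 members (1.81%) and fell for 6 (3.61%) by edgeR, against 2.92% and 1.57% of all genes. Leaving out 1 library at a time gave 1 to 3 that rose and 3 to 14 that fell. With library totals 1 rose and 22 fell, and by DESeq2 2 rose and 11 fell. Over all genes 1.12% rose and 3.90% fell with library totals, and 2.87% and 2.27% by DESeq2. Zfp777 rose by 0.35 ± 0.07 (edgeR adjusted p 0.00175), with 44.8, 42.5 and 43.2 CPM and then 75.8, 65.6 and 66.3 in HA-Tnrc6a IPs and 60.4, 63.1 and 74.2 and then 107, 97.7 and 95.6 in Upf1 knockout IPs. Zfp638 fell by 0.41 ± 0.09 (edgeR adjusted p 0.00276), with 64.7 to 90.4 CPM in HA-Tnrc6a IPs and 36.6 to 52.6 in Upf1 knockout IPs. Neither member's IP groups overlapped within an experiment, but experiment 3 alone ended the call of Zfp777 and experiment 4 alone that of Zfp638. Mean inputs moved the same way, from 5.99 ± 1.38 to 7.10 ± 1.07 CPM per kilobase for Zfp777 (SD, n = 6). For Zfp638 they went from 4.59 ± 0.40 to 3.75 ± 0.35, so IP levels alone do not give the change in recovery. Zfp628 rose by 0.45 ± 0.11 and Zfp644 by 0.22 ± 0.07, and each experiment alone ended both calls, as did library totals. Zfp971 fell by 0.65 ± 0.14, and each experiment alone ended its call. Zfp998 (chr13:66418114-66441118) fell by 0.30 ± 0.07 (edgeR adjusted p 0.012), a call that experiment 3 alone ended.

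Lysate levels in cells labelled Upf1 knockout rose for 34 members (20.5%) and fell for 55 (33.1%) by edgeR, where 29.5% of all genes rose and 29% fell. The median member was at -0.05 and the median gene at -0.02. With library totals 40 rose and 47 fell, against 33.4% and 24.7% of all genes. Zfp689 (chr7:127442136-127449158, overlapping B130055M24Rik) rose most, from 7.64, 6.89 and 7.14 CPM and then 10.1, 8.97 and 9.14 to 14.5, 14.2 and 14.1 and then 18.6, 18.6 and 18.3. Every Upf1 knockout input was above every HA-Tnrc6a input, and the rise was 0.98 ± 0.07 (edgeR adjusted p 7.69e-18). Its neighbour Zfp688 (chr7:127418963-127423241) rose by 0.83 ± 0.06 (edgeR adjusted p 1.7e-17), from 11.97 to 17.2 CPM over the 6 HA-Tnrc6a inputs to 22.2 to 29.7. Zfp992, in the chromosome 4 arrays, rose by 0.77 ± 0.03, from 79.3 to 85.5 CPM to 133 to 143.

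Zfp677 fell by 1.15 ± 0.21 in the same lysates (edgeR adjusted p 4.92e-06), from 1.31 to 3.84 CPM to 0.496 to 1.47. Zfp711, an X-linked partner of the demethylase Phf8, fell by 0.91 ± 0.19, from 1.68 to 2.71 CPM to 0.666 to 1.67. Zfp660 (-0.90), Zfp786 (-0.89) and Zfp947 (-0.68) followed. In these lysates 4 primitive endoderm markers fell and 1 rose, but the experiments differed. The markers' median change was -1.54 in experiment 3 and 0.59 in experiment 4, and 8 of 8 passed the test for that difference. Their sum ranged from 39.6 to 147 CPM, and their part in the members' levels was not tested.

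**Figure D5:**
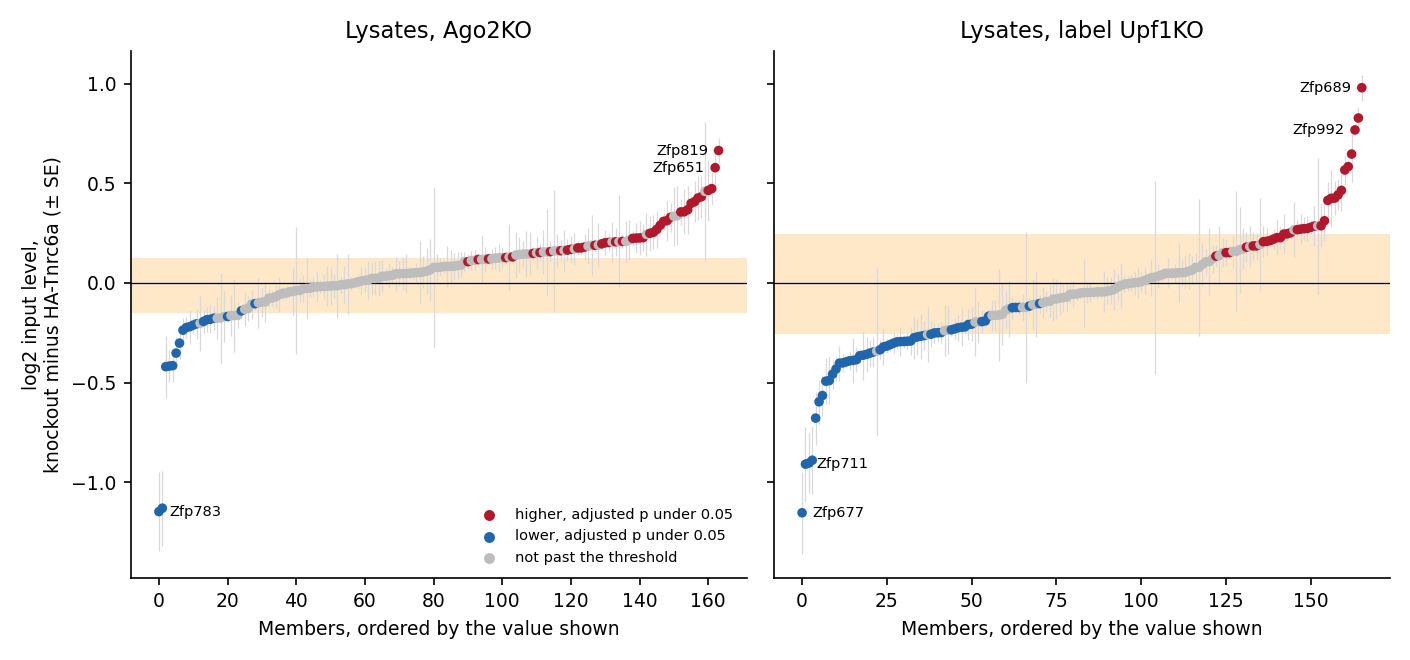
Log2 difference in input level between a knockout and HA-Tnrc6a cells (y axis, ± SE) for members ordered by that value (x axis), Ago2 knockout on the left and the cells labelled Upf1 knockout on the right, with a band for the 25th to 75th percentile of all genes. Zfp819 (0.66) leads on the left and Zfp689 (0.98) on the right, and the lowest values are near -1.15 in both.

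Between untagged and HA-Tnrc6a inputs 11 members rose and 12 fell by edgeR, against 7.67% and 7.74% of all genes, and the median was 0.00. With library totals 3 rose and 13 fell, against 6.01% and 8.45% of all genes. Experiment 3 alone called 2 members in all, and experiment 4 alone 19 that rose and 15 that fell. Over all genes 1.25% rose and 2.41% fell in experiment 3 alone, and 11.2% and 10.5% in experiment 4 alone. The number that rose went from 3 (without HA-Tnrc6a input replicate 1 of experiment 3) to 16 (without untagged input replicate 1 of experiment 3) when 1 library was left out, and moved by over 1.5 times in 11 of 12 such fits, while the number that fell stayed at 10 to 14. Zfp688 was higher by 0.27 ± 0.06, a call that experiment 3 alone ended. Zfp612 was lower by 0.64 on the log2 scale (SE 0.10), at 2.83 to 3.39 CPM against 6.52 to 7.20 in experiment 3 and 6.65 to 8.53 against 7.20 to 9.48 in experiment 4, where the groups overlapped. Experiment 4 alone ended its call.

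Beads also recovered some member RNAs from untagged cells, measured as the log2 IP-over-input ratio there. Zfp997, Zfp608, Zfp960, Zfp950 and Zfp998 were recovered most among members with enough counts to be named. By edgeR 45 members (27.1%) rose and 26 (15.7%) fell, against 18% and 17.8% of all genes, and 8 rose by at least 2-fold, against 3.27%. With library totals 31 rose and 59 fell, and the median over all genes moved from -0.03 to -0.20. Under that setting 10.3% of all genes rose and 39.2% fell. Beside the 18% and 17.8% of all genes with TMM factors, 27 of 61 in the Zfp900 to Zfp999 block rose and 1 fell. The blocks from Zfp600 to Zfp899 had 8, 6 and 4 that rose and 8, 9 and 8 that fell. With library totals the last block had 18 and 13. These ratios are the background subtracted in recovery with HA-Tnrc6a, so the block counts of both comparisons are not independent.

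Zfp960 went from 23.7, 25.0 and 24.4 CPM in untagged inputs of experiment 3 to 44.2, 39.2 and 45.9 in IPs, and from 36.7, 36.1 and 35.4 to 95.5, 93.8 and 87.5 in experiment 4. The ratio was 1.08 ± 0.06 (edgeR adjusted p 3.92e-12), with no overlap. Zfp998 had 68.6, 81.7 and 88.0 CPM in inputs and 122, 122 and 128 in IPs of experiment 3, and 91.3, 88.4 and 92.6 against 284, 229 and 235 in experiment 4, a ratio of 1.04 ± 0.06 (edgeR adjusted p 6.45e-11). Zfp706 went from 116 to 148 CPM over the 6 inputs to 235 to 328 over the IPs, a ratio of 1.01 ± 0.05 (edgeR adjusted p 1.58e-12), so its IP levels in tagged cells stood on this background. Zfp997 (chr13:66110374-66123709) reached 1.26 ± 0.12, with IPs of 24.2, 37.5 and 46.4 CPM in experiment 3 and 123, 105 and 102 in experiment 4, and experiment 3 alone ended its call. Zfp608 (overlapping Gm4221) reached 1.23 ± 0.28 at low levels, 0.426 to 1.12 CPM in untagged inputs and 1.13 to 3.15 in IPs, and experiment 3 alone ended its call too. Zfp609 was on the low side, at -0.53 ± 0.13 (edgeR adjusted p 0.00593).

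The genes that work with KRAB zinc finger proteins in silencing were read from a list of 26, of which 25 were tested. This list too was made with earlier results known. In recovery with HA-Tnrc6a 5 (20%) rose and 16 (64%) fell, against 29.8% and 32.2% of all genes, with a median of -0.29. Pphln1 (1.97 ± 0.09), a HUSH subunit, and Atf7ip (1.05 ± 0.08), which stabilises Setdb1, rose, while Trim28 (-0.53 ± 0.08) and Setdb1 (-0.51 ± 0.08) fell. Without Ago2, Pphln1 lost 1.23 ± 0.08 and Atf7ip lost 0.45 ± 0.07 of recovery, and 5 of the 25 rose and 5 fell, 20% each, against 9.09% and 12.3% of all genes. In Ago2 knockout lysates 11 (44%) rose and 2 (8%) fell, against 15.7% and 15.2% of all genes. In lysates of cells labelled Upf1 knockout 3 (12%) rose and 14 (56%) fell, against 29.5% and 29%. In bead recovery without a tag 10 (40%) rose and 5 (20%) fell, against 18% and 17.8%.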

How the data were processed

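Raw counts per gene and library, with no normalization, were deposited in 48 columns, and 48 deposited per-sample columns headed RPKM were not used. Reads were demultiplexed with bcl2fastq 2.20 and aligned with STAR 2.7.3a, and the build was GRCm38 (mm10), per the submitters' processing notes; the counting tool, annotation and strand setting are not given in the sources used here. Columns 1 to 3 were taken as experiment 3 and 4 to 6 as experiment 4, which is inferred. The members, lists and naming rule were chosen with earlier results of these data known.

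Counts were fitted over all genes with edgeR 4.0.16 (limma 3.58.1, R 4.3.3): TMM factors, filterByExpr with a minimum count of 10, 1 coefficient per group, robust quasi-likelihood F-tests (two-sided) on contrasts averaged over both experiments, and Benjamini-Hochberg adjustment over all genes tested, at 0.05. Standard errors were taken as the log2 fold change over the root of F, and CPM used TMM over 48 libraries. The fit was tested on simulated data for recovery with HA-Tnrc6a, run on 19618 genes. Of genes changed by 2-fold 84% were found, and of those changed by 1.5-fold 70%. Among the genes called, 7.23% had not been changed, above the 5% aimed at. Only 100 genes were changed at each size, while 62.0% of genes were called in the data. The simulation therefore does not test the scaling of the libraries. Changed genes were drawn only from those above a minimum mean count, and all groups shared a common profile. The rates found thus do not cover members with few counts.

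Up to 5 members per direction were named in each comparison, provided that the adjusted p was under 0.05, both experiments gave the sign and the average log2 CPM was 0 or more, besides a list of members chosen for function. Reads carry no molecular identifiers, so errors were taken from the spread between replicate libraries. Positions and promoter windows came from RefSeq (GRCm38.p6), matched for 166 rows by Entrez identifier. Replicates of a group were compared: no 2 libraries were identical, and their counts differed by more than sampling noise (chi-square per degree of freedom 1.96 to 36.2). Alternatives were RLE factors, library totals, no filter, DESeq2 1.42.0, all libraries in 1 fit, each experiment alone, IPs without inputs, a replicate block and leaving out each library.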

Additional observations from a re-analysis of the deposited data

Results flagged for a closer look

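For these members the difference between experiment 3 and experiment 4 passed its own test (edgeR interaction contrast, adjusted over all genes), and each value is the effect in experiment 4 minus that in experiment 3. Groups held 3 libraries, so single libraries were not tested as outliers.

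In recovery from Ago2 knockout over untagged cells, Zfp706 differed by -0.64 (0.22 in experiment 3, -0.41 in experiment 4, adjusted p 0.00281). Zfp932 differed by -0.77 (-0.054 and -0.83, adjusted p 0.0183) and Zfp827 by -0.86 (6.33 and 5.47, adjusted p 0.00581). In recovery from cells labelled Upf1 knockout over untagged cells, Zfp687 differed by 0.88 (1.03 and 1.91, adjusted p 0.000404), Zfp930 by -0.92 (-0.30 and -1.23, adjusted p 0.0231) and Zfp998 by -0.71 (-0.54 and -1.25, adjusted p 0.0217).

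In lysates of cells labelled Upf1 knockout, Zfp750 differed by 0.75 (-0.86 and -0.11, adjusted p 0.0309), Zfp819 by -0.63 (0.023 and -0.61, adjusted p 0.00126) and Zfp706 by -0.23 (0.33 and 0.10, adjusted p 0.00457). In untagged inputs Zfp612 differed by 1.04 (-1.16 and -0.12, adjusted p 0.00316).

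In bead recovery from untagged cells, Zfp997 differed by 1.34 (0.59 and 1.94, adjusted p 0.01), Zfp998 by 0.80 (0.64 and 1.44, adjusted p 0.000577) and Zfp960 by 0.52 (0.82 and 1.34, adjusted p 0.00979). Zfp687 differed in the other direction, by -0.99 (1.04 and 0.053, adjusted p 2.85e-06). Zfp998 and Zfp687 thus differed both in bead recovery and in the recovery over untagged cells, which uses the same untagged libraries. The cause was not tested.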

How the results depend on the processing

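Counts of members called in either direction kept within 1.5 times of their values under all alternatives run for HA-Tnrc6a, Ago2 knockout and Upf1 knockout recovery over untagged cells. The same held for Upf1 knockout lysates. The split by direction moved more. In these recoveries, in that order, 27, 16 and 41 members fell, and with library totals 49, 28 and 66. Experiment 3 alone gave 11, 5 and 29 that fell. For Upf1 knockout over untagged cells 70 rose and 41 fell, and in experiment 4 alone 59 and 58. For recovery in Ago2 knockout against HA-Tnrc6a cells (55 members) experiment 3 alone gave 24 and IPs without inputs 96. For Upf1 knockout against HA-Tnrc6a cells (9 members) library totals gave 23, each experiment alone 2, and IPs without inputs 91. For Ago2 knockout lysates (61) experiment 3 alone gave 32 and the fit of all 48 libraries 37, for untagged inputs (23) they gave 2 and 10, and for bead recovery (71) experiment 3 alone gave 22. The cause was not tested. A fit of 1 experiment holds fewer libraries. With as many libraries as experiment 3 alone, experiment 4 alone gave 41 for Ago2 knockout against HA-Tnrc6a cells. It gave 45 for Ago2 knockout lysates, 34 for untagged inputs and 78 for bead recovery. Libraries of experiment 3 held fewer counts than those of experiment 4.

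Leaving out 1 library at a time gave 98 to 108 members for recovery with HA-Tnrc6a, 98 to 107 for Ago2 knockout and 109 to 122 for Upf1 knockout over untagged cells. It gave 49 to 61 for Ago2 knockout and 5 to 16 for Upf1 knockout against HA-Tnrc6a cells. In lysates it gave 50 to 60 (Ago2 knockout), 80 to 88 (Upf1 knockout) and 15 to 30 (untagged), and in bead recovery 62 to 74. The count of 9 became 5 without Upf1 knockout input replicate 3 of experiment 3, 16 without HA-Tnrc6a IP replicate 1 and 15 without Upf1 knockout IP replicate 1 of experiment 4. The count of 23 became 15 without HA-Tnrc6a input replicate 1 of experiment 3, or without any of untagged inputs 1, 2 and 3 and HA-Tnrc6a inputs 1 and 2 of experiment 4.

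Replicate numbers gave little sign of pairing between inputs and IPs. Over 24 pairs the correlation of deviations averaged 0.0204 (-0.0354 to 0.167), with 1 above 0.1. Deviations from means of 3 libraries hold counting noise, so low values cannot show that inputs and IPs were unpaired. With a replicate block the counts were 102, 105, 111, 57, 9, 65, 88, 25 and 76, in the order of the preceding ranges.

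Signs turned in 11 named values, counting those that passed the threshold in the main fit or in the alternative. Sign changes of values short of the threshold in both were not counted. With library totals these were Zfp639 (-0.25) and Zfp706 (-0.22) in recovery from Upf1 knockout over untagged cells and Zfp979 (-0.17) in bead recovery. In experiment 3 alone they were Zfp750 (-0.18) in recovery from Upf1 knockout over untagged cells and Zfp819 (0.025) in Upf1 knockout lysates. With IPs without inputs they were Zfp750 (-0.43) in the former, Zfp644 (0.17) in Ago2 knockout against HA-Tnrc6a cells, and Zfp711 (-0.56), Zfp668 (-0.37), Zfp819 (-0.31) and Zfp652 (0.15) in Upf1 knockout against HA-Tnrc6a cells. Of 265 named values, leaving out 1 library ended a call in 182 of 4918 refits. By the same count it turned no sign.

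An alternative chosen after seeing the data left out the 66 members that overlap another gene. The share called was then 60% in place of 60.8% for recovery with HA-Tnrc6a and 33% in place of 33.1% for Ago2 knockout against HA-Tnrc6a cells. The planned grouping by finger number and KRAB domain, and the run without near-identical copies, needed protein sequences and were not run. Low counts limit some members, as in the SE of 0.48 for Zfp703 in recovery with HA-Tnrc6a.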

Other observations

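Correlation with length was weak: across the 166 members Spearman's rho between length and recovery with HA-Tnrc6a was 0.26, and across all genes 0.29, as a description over genes that share the same libraries.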
